A study of Mus musculus with 6 samples.

Results

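The right atrium (RA) is the chamber in which the gene of bone morphogenetic protein 10, Bmp10, is most active after birth, and this report describes Bmp10 and 9 further genes of BMP signalling in the RA of young mice. The 10 genes were chosen by name: the BMP ligands Bmp10, Bmp2, Bmp4 and Bmp6, the receptor Acvrl1 and co-receptor Eng, and the target genes Id1, Id2, Id3 and Smad6. Each symbol had 1 row among the 54093 genes of the table, and all 10 rows were used. RNA-seq was read in 3 sham and 3 VO (volume overload) libraries of RA free wall myocardium from wild-type C57BL/6 mice at postnatal day 21. In the VO group, a fistula (ACF) between the abdominal aorta and the inferior vena cava, made in neonatal pups, leads arterial blood back to the RA. The sham group had surgery without a fistula. Pups of both sexes were used, both groups carried no engineered allele, and the labels do not say whether a library came from 1 animal or from several, so that p-values measure the spread between these samples only.

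BMPs are secreted ligands that bind pairs of type I and type II serine/threonine kinase receptors, which phosphorylate SMAD1, SMAD5 and SMAD9, and these enter the nucleus with SMAD4. BMP10 is made by cardiomyocytes and, after birth, mainly by those of the RA. It reaches endothelial cells through the blood, where ALK1, encoded by Acvrl1, binds it with high affinity and endoglin, encoded by Eng, acts as co-receptor. The Id genes and Smad6 are among the direct targets of the pathway.

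Values are FPKM, the fragments of a gene divided by its length and by the size of the library. Between 15963082 and 17237903 fragments per library were assigned to genes. The library size in the FPKM values was a scaled one, by which 1 FPKM meant 15.6 to 18.1 fragments for each kilobase of a gene. Differences between the groups are log2 fold changes of FPKM + 0.1, VO minus sham, from limma's moderated test across the 12627 genes with a mean of at least 1 FPKM, two-sided, and p-values were adjusted over all of them by the method of Benjamini and Hochberg. A gene was called when its adjusted p-value was under 0.05.

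The atrial identity of the tissue was clear, and 2 of the VO libraries stood apart. The 7 atrial cardiomyocyte markers, which include Nppa and Myl7, summed to 10603 to 16792 FPKM in the sham and 4702 to 10242 FPKM in the VO libraries. Nppa and Myl7 carried most of these sums. Log2 fold changes were negative for 5 of the 7 and positive for Nr2f2 and Kcnj3. With quantile normalization 4 were negative and 3 positive. VO 1 held far more RNA of immune cells, with 8 immune markers summing to 1185 FPKM against 199 to 240 FPKM in the sham libraries, 231 FPKM in VO 2 and 311 FPKM in VO 3. VO 3 held RNA of brown fat. Its 3 adipocyte markers summed to 324 FPKM against at most 0.608 FPKM elsewhere, and Ucp1 was 254 FPKM there and listed at 0 in the other 5 libraries. The 8 general cardiomyocyte markers summed to 10756 to 11525 FPKM in the sham libraries, 5636 FPKM in VO 1, 8566 FPKM in VO 2 and 7604 FPKM in VO 3. Of the 8, 7 had negative log2 fold changes, with a median of -0.41. With TPM or quantile normalization 6 of the 8 were negative, with medians of -0.27 and -0.19. In bulk tissue, fewer cells of a type and less RNA per cell cannot be told apart.

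Bmp10 was lower in each VO library than in each sham library, Acvrl1 was higher, and none of the 10 genes passed the adjusted test. All 10 genes were above 1 FPKM in every library and entered the test. Log2 fold changes were negative for 8 of them and positive for Acvrl1 and Id2, with a median of -0.20, against a median of -0.01 and 51.5% negative values among all tested genes. By sign, 6 of the 10 were lower with TPM and 7 with quantile normalization. With the adjusted p-value 0 of the 10 genes were called, where 0.00792% of all tested genes, a single gene, were called. An unadjusted p-value under 0.05 was reached in the lower direction by Bmp10, where 8.08% of all tested genes did so, and in the higher direction by Acvrl1, where 3.89% did so. The groups did not overlap for Bmp10 and Id1 in the lower direction, as for 12.9% of all tested genes, and for Acvrl1 in the higher direction, as for 8.25%. Each of these counts was within 1 gene of what the share gives for 10 genes.

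**Figure D1:**
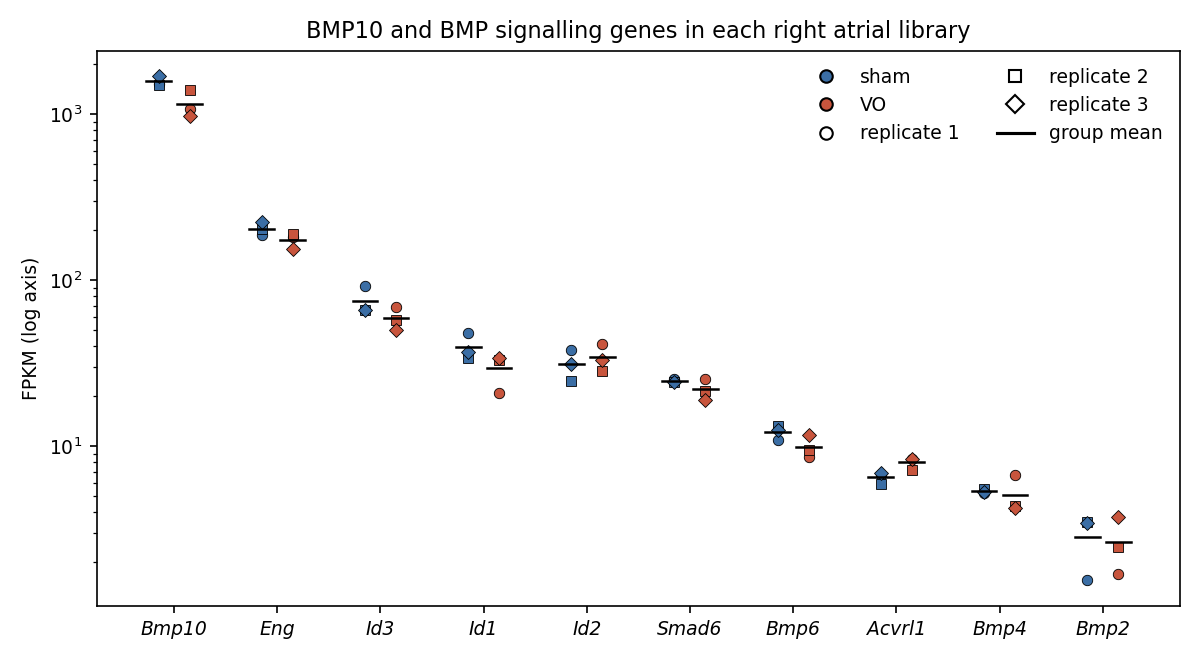
FPKM of the 10 genes in the 3 sham and the 3 VO libraries on a log axis, with marker shapes for the replicates and a horizontal line for each group mean. Bmp10 sits at 981 FPKM or more in every library, and its VO points all lie below its sham points, while Acvrl1, at 5.96 to 8.40 FPKM, shows the opposite order.

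Bmp10 (ENSMUSG00000030046, chromosome 6, 87428994 to 87437677, plus strand, GRCm38) was by far the most abundant ligand. Its sham values were 1528, 1499 and 1702 FPKM, and its VO values were 1069, 1402 and 981 FPKM. VO 1 and VO 3 were well below the sham range, and VO 2 was just under the lowest sham library. The mean was 1576 ± 110 FPKM in sham and 1150 ± 222 FPKM in VO (SD, n = 3), which is 27.0% lower. The log2 fold change was -0.47 with an SE of 0.19 and a 95% interval of -0.92 to -0.02, and the adjusted p-value in limma was 0.411. Between 72416 and 124419 fragments lay behind each value, so counting error was small beside the spread between libraries. By mean level Bmp10 was number 21 among all genes of the RA. Under quantile normalization its log2 fold change was -0.20, with the same sign.

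The mean of the cardiomyocyte markers was lower in the same libraries as Bmp10. By sign 7 of the 8 markers were lower in VO, while Pln was higher, with a log2 fold change of 0.12. The study named Actc1, Actn2, Myh6 and Tnnt2 as lower in VO from these same libraries. Their direction here is therefore not independent evidence. Relative to the sham mean on the log2 scale, Bmp10 was -0.56 in VO 1, -0.17 in VO 2 and -0.68 in VO 3, and the mean of the 8 cardiomyocyte markers was -0.66, -0.15 and -0.35 in the same libraries. The log2 ratio of Bmp10 to these markers was 1.93 ± 0.06 in sham and 1.84 ± 0.23 in VO (SD, n = 3), and the groups overlapped, with VO 1 at 2.03 above every sham library and VO 3 at 1.59 below them. Against the 7 atrial markers, the log2 ratio was 2.06 ± 0.19 in sham and 2.02 ± 0.27 in VO (SD, n = 3), again with overlap. Against Myl7 alone, the log2 ratio was higher in VO by 0.35, at -2.03 ± 0.40 in sham and -1.69 ± 0.36 in VO (SD, n = 3), with overlap. The ratios were chosen after the values were seen. A two-sided exact permutation test of 3 against 3 libraries gave p = 0.8 for both marker lists and p = 0.5 for Myl7. The part of the cardiomyocyte genes in the lower Bmp10 was not tested.

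**Figure D2:**
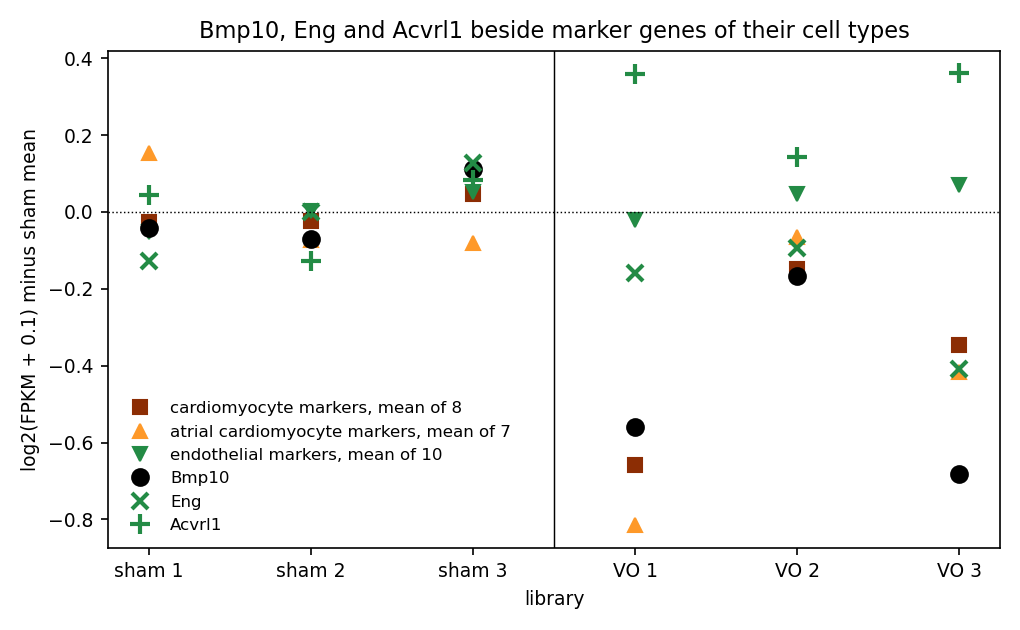
Log2(FPKM + 0.1) minus the mean of the 3 sham libraries, for Bmp10, Eng and Acvrl1 and for the mean of the cardiomyocyte, atrial cardiomyocyte and endothelial marker genes in each library. In VO 1 and VO 3 Bmp10 lies at -0.56 and -0.68 with both cardiomyocyte lists below 0, while the endothelial markers stay between -0.05 and 0.07 in all 6 libraries.

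The promoter of Bmp10 is shown because this gene carries most of the ligand RNA, with the letters AGATAA, the core of the binding site of the cardiac GATA factors, in capitals. The sequence is that of RefSeq on GRCm38.p6, chromosome 6, 87428744 to 87429043, plus strand, from 250 bases before the transcription start to 50 bases after it, 5′ to 3′.
Bmp10: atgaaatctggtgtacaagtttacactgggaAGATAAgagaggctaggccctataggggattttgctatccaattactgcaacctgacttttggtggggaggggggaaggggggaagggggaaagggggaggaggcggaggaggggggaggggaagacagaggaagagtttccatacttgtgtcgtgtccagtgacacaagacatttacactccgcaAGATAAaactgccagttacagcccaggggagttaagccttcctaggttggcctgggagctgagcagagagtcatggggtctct
AGATAA began 219 and 33 bases before the start. Searched on both strands, it was present in 11.2% of the 32851 mouse promoters of 300 bases. The SMAD-binding letters GGCGCC, present in 11.9% of these promoters, and GTCTAGAC, present in 0.213%, were not in this window. These matches describe the letters and not binding.

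The other ligands were at far lower levels. Bmp10 made up 97.3% to 98.5% of the summed FPKM of 15 BMP and related GDF ligands in each library, and its level was 84.0 to 147 times that of Bmp6, the next ligand among the 10 genes. The summed level of the other 14 ligands was 23.0, 29.5 and 26.0 FPKM in the sham and 21.8, 21.9 and 27.1 FPKM in the VO libraries. The ligand total thus followed Bmp10, with 1529 to 1728 FPKM in sham and 1008 to 1424 FPKM in VO. Gdf2, which encodes BMP9, the other high-affinity ligand of ALK1 and a product of the liver, was between 0.226 and 0.941 FPKM.

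Bmp6 (chromosome 13, 38345107 to 38500302, plus strand), the ligand best known for its control of hepcidin and iron, was 10.8, 13.2 and 12.5 FPKM in sham and 8.59, 9.55 and 11.7 FPKM in VO. VO 1 and VO 2 were below the sham range and VO 3 was inside it. The log2 fold change was -0.30 with an SE of 0.14 and an adjusted p-value of 0.428. The 3′ end of Bmp6 overlaps Txndc5, a gene of the opposite strand with a mean of 29.6 FPKM, and whether counting used the strand is not given in the sources used here, so the value of Bmp6 is uncertain. Bmp4 (chromosome 14, 46383520 to 46390669, minus strand), a ligand of early heart development, was 5.26, 5.497 and 5.30 FPKM in sham and 6.72, 4.39 and 4.22 FPKM in VO. VO 1 was above all sham libraries and VO 2 and VO 3 were below them, for a log2 fold change of -0.10 (adjusted p 0.814). Bmp2 (chromosome 2, 133552159 to 133562885, plus strand), which patterns the atrioventricular canal, was 1.55, 3.48 and 3.45 FPKM in sham and 1.71, 2.47 and 3.73 FPKM in VO. The lowest value of each group belonged to replicate 1, the groups overlapped fully, and VO differed from sham by -0.08 on the log2 scale (adjusted p 0.937). Only 86 to 218 fragments lay behind Bmp2, whose 95% interval of -0.99 to 0.82 leaves room for a large difference in either direction. The signs for Bmp2 and Bmp4 also depended on the processing: both were positive with TPM (0.05 and 0.04), and Bmp4 was at -0.31 without VO 1.

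The BMP10 receptor genes had log2 fold changes of opposite sign. Acvrl1 (ENSMUSG00000000530, chromosome 15, 101128522 to 101145336, plus strand) encodes the type I receptor ALK1 of endothelial cells. It was 6.72, 5.96 and 6.91 FPKM in sham and 8.39, 7.21 and 8.40 FPKM in VO. All 3 VO libraries were above all 3 sham libraries, with VO 2 nearest to them. The means were 6.53 ± 0.505 and 7.996 ± 0.685 FPKM (SD, n = 3), and the log2 fold change was 0.29 with an SE of 0.11, a 95% interval of 0.02 to 0.56 and an adjusted p-value of 0.410. Behind each value lay 438 to 649 fragments.

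Eng (ENSMUSG00000026814, chromosome 2, 32646595 to 32682669, plus strand) encodes endoglin, the co-receptor that presents BMP10 to ALK1. It was 187, 204 and 223 FPKM in sham and 183, 191 and 154 FPKM in VO. VO 1 and VO 3 were below the sham libraries and VO 2 was inside their range. Its log2 fold change was -0.22 (SE 0.14, adjusted p 0.493), and under quantile normalization the sign turned, at 0.03. The last bases of Eng overlap Fpgs on the opposite strand, which had a mean of 3.06 FPKM.

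Per base of gene length, Eng RNA was thus far above Acvrl1 RNA, and the gap was smaller in VO. The log2 ratio of Acvrl1 to Eng was -4.78, -5.07 and -4.99 in sham and -4.43, -4.71 and -4.18 in VO, so that every VO library was above every sham library by this measure. The mean difference was 0.51. The ratio was chosen after the values were seen, and the two-sided exact permutation test gave p = 0.1, the smallest that 3 against 3 libraries allow. Both receptors are genes of endothelial cells, and the 10 endothelial markers summed to 249.4 to 264 FPKM in sham and 257 to 270 FPKM in VO, and their median log2 fold change was 0.08. Of these markers 3 were lower and 7 higher by sign, and none was at 0. Relative to the mean of the endothelial markers, Eng was lower in each VO than in each sham library, with a mean log2 difference of -0.25, while Acvrl1 was higher by 0.26 with overlap. The same permutation test gave p = 0.1 for Eng and p = 0.2 for Acvrl1. Single markers differed: Emcn and Erg were lower without overlap (log2 fold changes -0.25 and -0.26), and Cdh5 and Tie1 higher without overlap (0.28 and 0.15). The 4 endocardial markers summed to 149 to 164 FPKM in sham and 89.5 to 152 FPKM in VO, and their median log2 fold change was -0.38. Their part in the value of Eng was not tested.

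The target genes had log2 fold changes of both signs. Id1 (ENSMUSG00000042745, chromosome 2, 152736251 to 152737410, plus strand) encodes an inhibitor of basic helix-loop-helix factors and is a much used readout of BMP signalling in endothelium. It was 48.2, 34.3 and 36.8 FPKM in sham and 21.05, 33.3 and 34.0 FPKM in VO. VO 1 was far below the rest, and VO 2 and VO 3 were barely under the lowest sham library. The log2 fold change was -0.45 with an SE of 0.22 and an adjusted p-value of 0.432, and it was -0.23 without VO 1.

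Id3 (chromosome 4, 136143497 to 136145755, plus strand), a close relative of Id1, was 92.4, 66.2 and 65.9 FPKM in sham and 69.2, 57.9 and 50.0 FPKM in VO. The highest sham library, sham 1, stood apart, VO 1 was inside the sham range, and VO 2 and VO 3 were below it. This gave a log2 fold change of -0.34 (SE 0.18, adjusted p 0.457), or -0.18 without sham 1.

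Id2 (chromosome 12, 25093799 to 25097140, minus strand), the third of these inhibitors, was 37.9, 24.9 and 31.3 FPKM in sham and 41.6, 28.5 and 33.3 FPKM in VO. The groups overlapped, with VO 1 highest of all. VO was above sham by 0.14 on the log2 scale (adjusted p 0.747), and the value turned to -0.02 without sham 2 and to -0.01 without VO 1. In VO 1, Id1 was lowest and Id2 highest of all 6 libraries. This library also had the highest immune and the lowest cardiomyocyte marker sum, and the part of either was not tested. The log2 ratio of Id2 to Id1 was -0.35 ± 0.11 in sham and 0.24 ± 0.64 in VO (SD, n = 3), without overlap, but VO 2 at -0.22 lay next to sham 3 at -0.24.

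Smad6 (chromosome 9, 63953076 to 64022059, minus strand), which encodes an inhibitory SMAD that feeds back on the pathway, was 25.5, 24.3 and 24.5 FPKM in sham, a narrow range. In VO it was 25.3, 21.6 and 19.1 FPKM, with VO 1 inside the sham range and VO 2 and VO 3 below it. The log2 fold change was -0.18 with an SE of 0.12 and an adjusted p-value of 0.522, and it was -0.29 without VO 1 and -0.04 with TPM.

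Promoters of the same length were found for 7 of the 10 genes (Bmp10, Bmp4, Bmp6, Eng, Id2, Id3 and Smad6), and not for Bmp2, Acvrl1 and Id1. Id2 and Smad6 are shown because they were the only genes of the 7 with SMAD-binding letters in the window, here in capitals. The sequences are from RefSeq on GRCm38.p6, both on the minus strand and read 5′ to 3′ along the gene, that of Id2 on chromosome 12 at 25096043 to 25096342 and that of Smad6 on chromosome 9 at 64022010 to 64022309.
Id2: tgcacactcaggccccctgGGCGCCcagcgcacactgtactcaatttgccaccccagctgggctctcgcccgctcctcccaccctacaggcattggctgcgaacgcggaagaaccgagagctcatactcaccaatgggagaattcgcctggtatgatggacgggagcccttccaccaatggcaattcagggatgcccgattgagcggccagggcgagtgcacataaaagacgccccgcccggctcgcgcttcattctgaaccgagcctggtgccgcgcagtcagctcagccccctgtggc
Smad6: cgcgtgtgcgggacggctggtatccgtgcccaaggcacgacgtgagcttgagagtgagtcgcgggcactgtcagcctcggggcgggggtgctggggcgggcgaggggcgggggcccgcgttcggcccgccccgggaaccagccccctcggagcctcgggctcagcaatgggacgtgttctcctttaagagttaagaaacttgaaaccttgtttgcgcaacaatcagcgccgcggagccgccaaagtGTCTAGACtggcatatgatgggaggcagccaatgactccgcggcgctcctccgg
GGCGCC began 231 bases before the RefSeq start of Id2, which lies 1048 bases inside the gene as listed in the table, so the whole window is within that gene. The palindrome GTCTAGAC began 4 bases before the start of Smad6 and ran across it. The 2 genes with these letters had log2 fold changes of 0.14 and -0.18, neither of which passed the test.

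**Figure D3:**
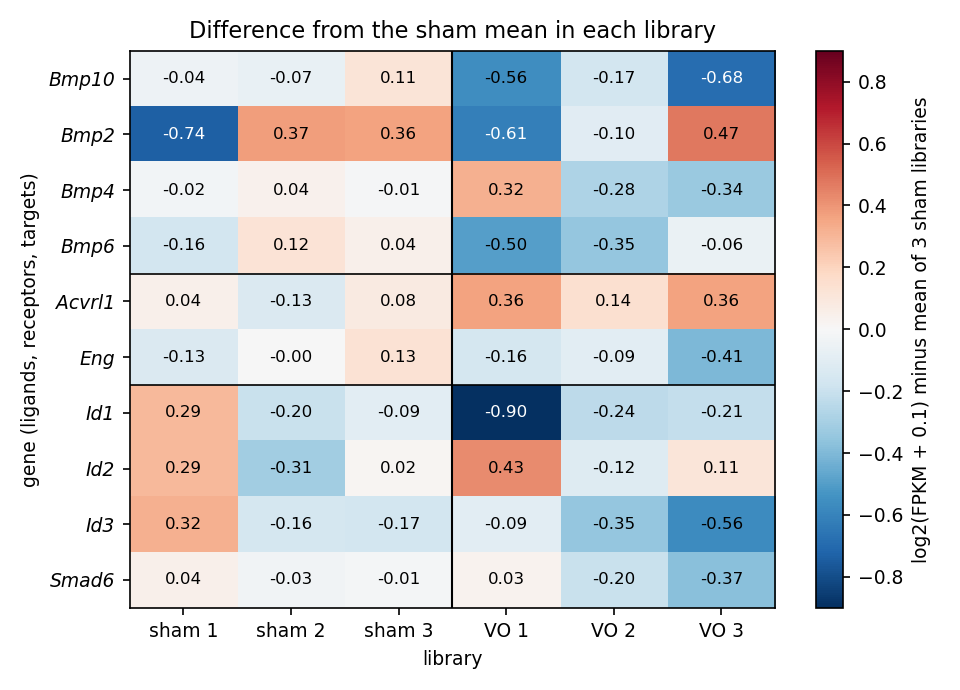
Log2(FPKM + 0.1) of each gene in each library minus the mean of the 3 sham libraries, with ligands, receptors and targets separated by horizontal lines and sham from VO by a vertical line. Bmp10 is below 0 in all VO libraries and Acvrl1 above 0, and VO 1 holds the extremes of Id1 at -0.90 and Id2 at 0.43.

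The VO libraries differed among themselves in the 10 genes. Of the 10, 6 were below the sham mean in VO 1, 9 in VO 2 and 7 in VO 3. VO 2 nevertheless lay nearest to sham, with differences from the sham mean between -0.35 and 0.14 on the log2 scale, against -0.90 to 0.43 in VO 1 and -0.68 to 0.47 in VO 3. Among the sham libraries, sham 1 was the lowest for Bmp2, at -0.74, and the highest for Id1, Id2 and Id3. Bmp10, Bmp4, Bmp6, Eng, Id1, Id3 and Smad6 had their lowest value of the 6 libraries in VO 1 or VO 3. Without VO 1 an unadjusted p-value under 0.05 was reached by 3 genes, Bmp4, Id3 and Smad6, beside 7.53% of all genes tested in that fit. Without VO 3 it was reached by Bmp6 alone, beside 11.7%, and without VO 2 by Bmp10 and Acvrl1, beside 15.8%. Without sham 1 it was reached by Bmp6, beside 6.9%, and without sham 2 or sham 3 by none, beside 8.86% and 9.19%.

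The wider pathway held no called gene either. Of 75 further genes of BMP signalling, 49 passed the expression filter, and 26 of these had negative and 23 positive log2 fold changes, with a median of -0.01. With adjustment 0 of the 49 were called. Hamp, Hfe2, Rgma and Nkx2-5 were lower at an unadjusted p-value under 0.05, and Fstl1 was higher. These counts of 4 lower and 1 higher among 49 compare with 8.08% and 3.89% of all tested genes. The groups did not overlap for 10 genes lower in VO and 3 higher in VO, against 12.9% and 8.25% of all tested genes.

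Among the 3 tested ligands of this list, Bmp5, Gdf7 and Gdf10, log2 fold changes were between -0.39 and -0.09, and Gdf10, with the highest mean, varied most, from 0.793 FPKM in VO 1 to 4.01 FPKM in VO 3. The other 8 ligands, Bmp3, Bmp7, Bmp8a, Bmp8b, Bmp15, Gdf2, Gdf5 and Gdf6, were under the filter.

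Of the 8 tested receptors and co-receptors, 4 were lower and 4 higher by sign. The type II receptor Bmpr2, the partner of ALK1 for BMP10, was 12.3, 14.5 and 15.6 FPKM in sham and 17.1, 15.2 and 15.2 FPKM in VO, with overlap and a log2 fold change of 0.17. The type I receptor Bmpr1a, by contrast, was 50.1, 39.4 and 39.9 FPKM in sham and 38.1, 34.5 and 38.3 FPKM in VO, without overlap (log2 fold change -0.22, adjusted p 0.476). The RGM co-receptors were split: Rgma had a log2 fold change of -0.45 (SE 0.15, adjusted p 0.404) and no overlap, while Rgmb had 0.10. Bmpr1b and Acvr2b were under the filter.

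Of the 7 tested SMADs and cofactors, 6 were higher by sign, with a median log2 fold change of 0.24 and no gene without overlap, and all 7 were higher by sign with TPM, quantile normalization or voom. The receptor-regulated Smad1, Smad5 and Smad9 had log2 fold changes of 0.24, 0.15 and 0.27, and Ski, a repressor of SMAD activity with the highest level of this list, had 0.24. Their adjusted p-values were 0.500, 0.562, 0.461 and 0.541. Runx1 was under the filter. None of these values passed the test, and TPM moves the median of all genes by 0.14, close to the difference of Smad5.

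Of the 10 tested extracellular and membrane modulators, 6 were lower and 4 higher by sign, while 4 were lower and 6 higher with TPM. Fstl1, a secreted glycoprotein of the follistatin family, was 85.8, 89.8 and 90.7 FPKM in sham and 171, 105 and 119 FPKM in VO. VO 1 was far above the rest and all VO libraries were above all sham libraries, with a log2 fold change of 0.53 (SE 0.19, adjusted p 0.406), or 0.33 without VO 1. The decoy receptor Bambi and the protease Htra1 were lower without overlap, with log2 fold changes of -0.24 and -0.22, and Bmp1, a protease that cleaves the antagonist chordin, was higher without overlap with 0.21. The classical antagonists Nog, Chrd and Grem1 were under the filter, as were Chrdl2, Fst, Sostdc1, Vwc2 and Tll1. Of the 6 intracellular inhibitors, 3 were lower and 3 higher by sign. The highest was Fkbp1a, which holds type I receptors inactive, with a log2 fold change of -0.09. The phosphatase Ppm1a was the only gene of this list without overlap, with a log2 fold change of -0.14.

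Among 9 tested further targets, 5 were lower and 4 higher by sign. Tbx2, a repressor of the chamber programme, was 2.73, 3.22 and 2.74 FPKM in sham and 3.86, 3.48 and 3.39 FPKM in VO, without overlap (log2 fold change 0.30, adjusted p 0.414). Nkx2-5, a cardiac transcription factor, had a log2 fold change of -0.46 (SE 0.14, adjusted p 0.404), without overlap. The study named it from RNA-seq of these same libraries, so that its direction here is not independent evidence. The study also reported it lower in VO by qRT-PCR, which was not examined here. Msx1, Msx2, Hamp2 and Dlx5 were under the filter.

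**Figure D4:**
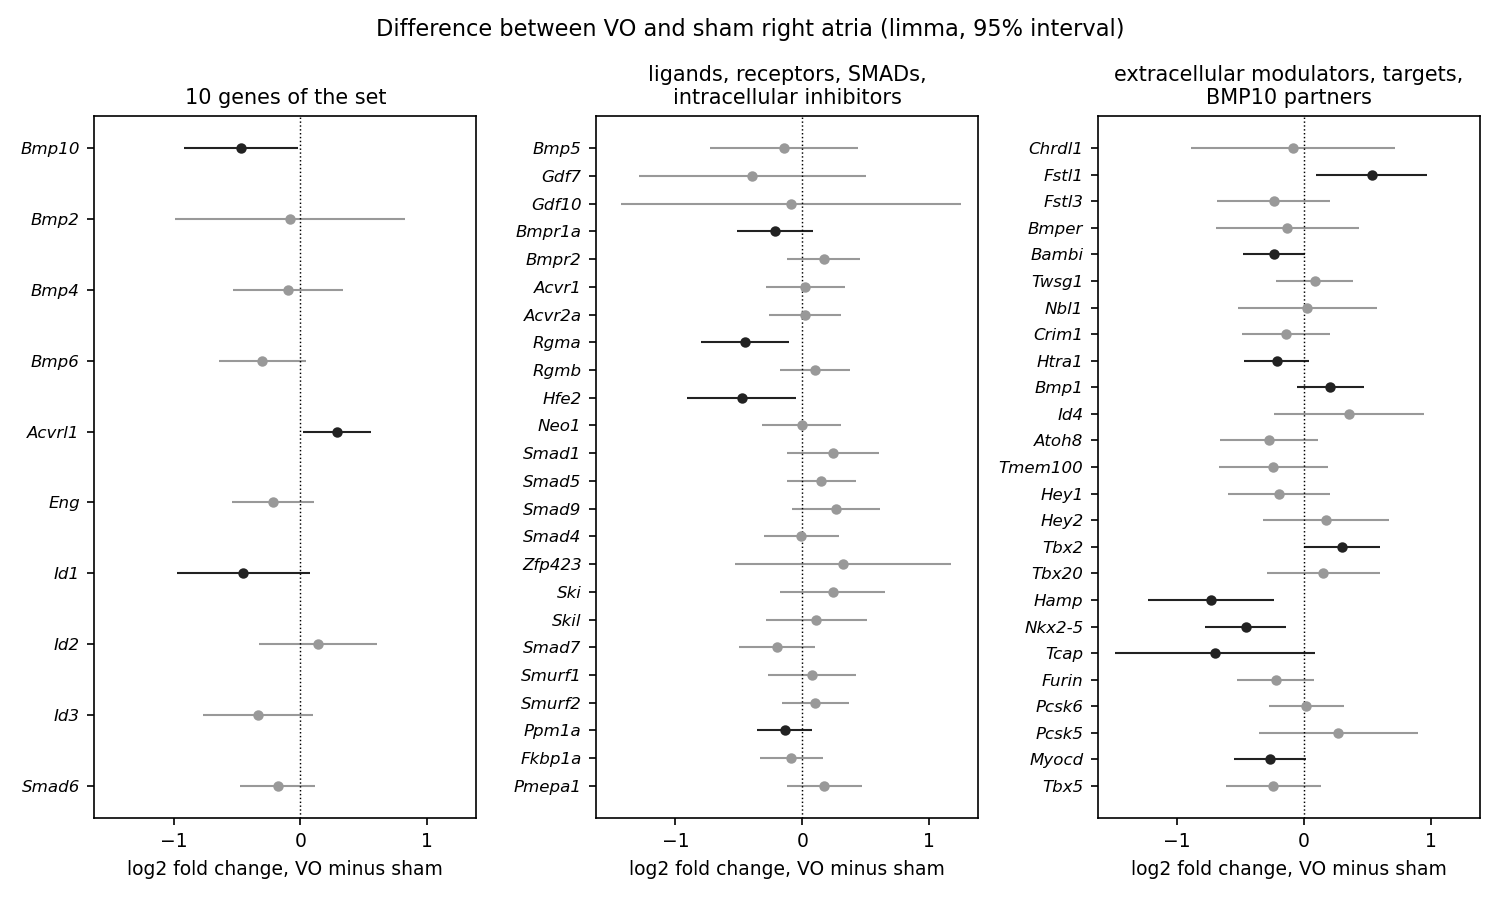
Log2 fold change, VO minus sham, with its 95% interval from limma for the 10 genes (left) and the 49 further tested genes of BMP signalling (middle and right). Black points mark genes whose sham and VO values do not overlap, grey points the rest, and no gene passed the adjusted test.

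The lowest log2 fold change of the 49 belonged to Hamp, which encodes hepcidin, the iron-regulating peptide that BMP6 induces through hemojuvelin in the liver and that cardiomyocytes also make. Hamp (chromosome 7) was the most abundant of the further targets, at 388, 269 and 254 FPKM in sham and 146, 194 and 203 FPKM in VO. Every VO library was below every sham library, with a log2 fold change of -0.73 (SE 0.21, adjusted p 0.400). Hamp2, a related gene, was listed at 0 in all sham libraries and VO 1, at 1.68 FPKM in VO 2 and at 0.626 FPKM in VO 3. Whether reads were shared between Hamp and Hamp2 was not tested. Hfe2, which encodes hemojuvelin and was the most abundant receptor or co-receptor of the list, was 173, 144 and 148 FPKM in sham and 88.8, 139 and 111 FPKM in VO. VO 2 was just under the lowest sham library, and the log2 fold change was -0.48 (SE 0.18, adjusted p 0.410). Hemojuvelin is also a gene of striated muscle, and the log2 ratio of Hamp to the cardiomyocyte markers was -0.47 ± 0.36 in sham and -0.82 ± 0.13 in VO (SD, n = 3), with overlap.

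The promoter of Hamp is shown beside those of the 10 genes because it held SMAD-binding letters and the GATA letters together. The sequence is from RefSeq on GRCm38.p6, chromosome 7, 30943980 to 30944279, minus strand, and capitals mark GGCGCC and TTATCT, the reverse complement of AGATAA.
Hamp: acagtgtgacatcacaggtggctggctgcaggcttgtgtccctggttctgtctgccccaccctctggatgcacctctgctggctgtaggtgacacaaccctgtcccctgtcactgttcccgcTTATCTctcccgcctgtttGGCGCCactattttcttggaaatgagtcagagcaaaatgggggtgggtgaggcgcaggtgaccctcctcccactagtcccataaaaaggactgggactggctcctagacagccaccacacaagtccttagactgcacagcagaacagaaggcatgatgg
GGCGCC began 109 bases before the start, and AGATAA, on the other strand, 128 bases before it. The promoters of Fstl1 and Nkx2-5 were searched as well and held none of the SMAD-binding or GATA letters. Of all mouse promoters of this length, 11.9% held GGCGCC and 11.2% held AGATAA. These matches, too, describe letters and not binding.

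**Figure D5:**
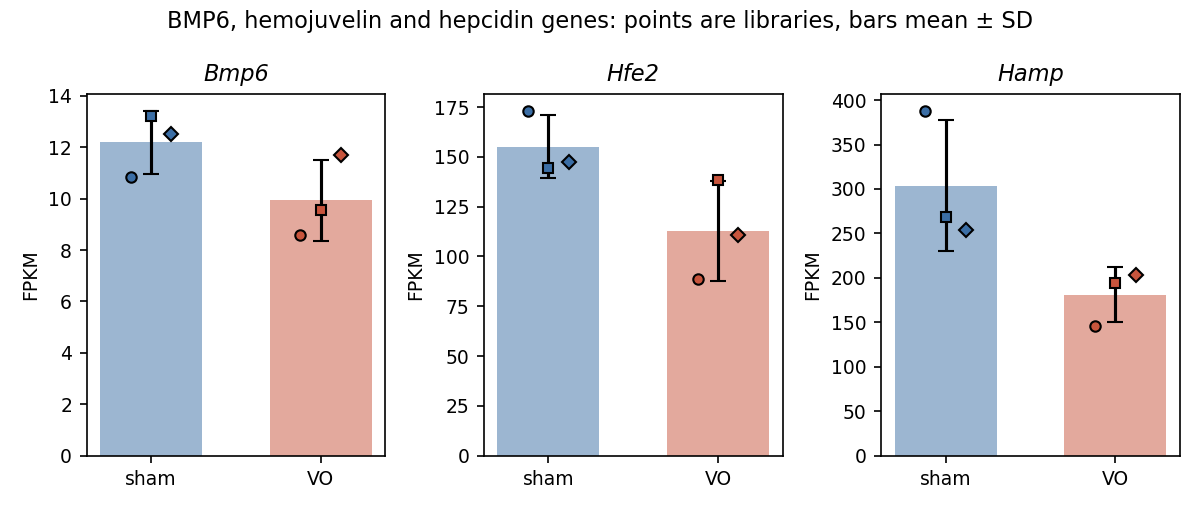
FPKM of Bmp6, Hfe2 and Hamp in sham and VO libraries. Points are libraries, with shapes for the replicates, and bars are means with SD (n = 3). For Hfe2 and Hamp every VO point lies below every sham point, and for Bmp6 VO 3 at 11.7 FPKM lies inside the sham range.

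Genes known to act with BMP10 in the atrium were also measured. Tcap, which encodes telethonin, a sarcomere protein that binds BMP10, was 641, 502 and 477 FPKM in sham and 191, 425 and 442 FPKM in VO, without overlap, with a log2 fold change of -0.70 (SE 0.33, adjusted p 0.425). VO 1 was far below the rest. Myocd, a coactivator of muscle genes, was lower without overlap (log2 fold change -0.27, adjusted p 0.422). The proprotein convertase Furin, which can cleave the BMP10 precursor, was 18.0, 18.5 and 20.8 FPKM in sham and 14.6, 19.0 and 15.7 FPKM in VO, with overlap and a log2 fold change of -0.22. Of the 6 tested partners, 4 were lower and 2 higher by sign, and Hand1 was under the filter.

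The genes whose levels were most like those of Bmp10 over the 6 libraries were sought among the 12626 other tested genes by Pearson's r of log2 values, as a description with no test. They were Hectd2os, a noncoding transcript antisense to Hectd2 (r = 0.995), Mlip, which encodes a lamin-interacting protein of muscle (0.991), Lad1, which encodes ladinin (0.989), Coro6, which encodes a coronin (0.988), and Mthfd2, which encodes an enzyme of mitochondrial folate metabolism (0.988). Coro6, for example, was 48.4, 49.0 and 54.3 FPKM in sham and 31.8, 45.8 and 32.1 FPKM in VO, with the same order of VO 2 above VO 1 and VO 3. These libraries share a tissue, and the difference between groups enters r. For the 5 genes, r of deviations from the group means was 0.966 to 0.986. They were picked by r over the same libraries, so this value is no separate support. By that measure, 0 of the 5 were among the first 5. High values were not limited to these 5: of the 12626 genes compared, 57 had r above 0.95 over the 6 libraries. Among the 10 genes themselves, r with Bmp10 was 0.88 for Eng, -0.84 for Acvrl1, 0.60 for Id1, 0.55 for Smad6, 0.51 for Id3, 0.45 for Bmp6, -0.43 for Id2, 0.06 for Bmp4 and 0.03 for Bmp2.

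The remaining marker lists gave no called gene. Sums over the fibroblast markers were 1833 to 2402 FPKM in sham and 1197 to 1867 FPKM in VO, and Gsn carried most of this difference, while 4 of the 7 markers were higher by sign and the median log2 fold change was 0.03. Sums over the smooth muscle and pericyte markers were 226 to 295 and 174 to 237 FPKM. Red cell markers varied widely within both groups, from 1187 to 6912 FPKM in sham and from 687 to 8468 FPKM in VO, highest in VO 1. The ventricular markers summed to 3.51 to 62.0 FPKM in sham and 3.53 to 22.1 FPKM in VO, sinoatrial markers to 10.2 to 22.6 and 10.8 to 22.5 FPKM, skeletal muscle markers to 144 to 200.1 and 57.8 to 102 FPKM, nearly all of it Ckm, which cardiomyocytes also express, with Myh1 at 0 in all libraries, and epicardial markers to 28.3 to 89.4 and 33.1 to 83.6 FPKM. Lymphatic markers summed to 38.2 to 52.4 FPKM in sham and 34.0 to 49.0 FPKM in VO, and neuronal and Schwann cell markers to 13.4 to 14.3 and 8.55 to 16.0 FPKM. Their part in the values of the 10 genes was not tested.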

How the data were processed

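RNA-seq of right atria was read in 3 sham and 3 VO libraries. The authors made the FPKM values from paired-end reads of a NEBNext Ultra library, aligned with HISAT2 2.0.5 and counted per gene with featureCounts 1.5.0-p3. StringTie 1.3.3b, DESeq2 1.16.1 and GATK 3.7 and the build GRCm38 are also named in the submitters' processing notes. The deposited FPKM table held 54093 complete genes, of which 26706 were above 0, besides 1 incomplete line that was dropped. Multiplied by gene length, 100% of the values were whole multiples of 1 step in their library, within 0.05 of a fragment, which gave back the fragments. The coordinates of the 10 genes were identical to GENCODE M21. The median-of-ratios factor of every library was 1.00.

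After median-of-ratios scaling and a filter at a mean FPKM of 1, log2(FPKM + 0.1) was fitted in limma 3.58.1 under R 4.3.3 (lmFit, eBayes with a trend), without covariates and with all 6 libraries. The DESeq2 test of the authors was not repeated, as the deposited unit is FPKM, and voom on the recovered fragments was run as an alternative. At the same cut-off of the adjusted p-value, the authors reported far more genes by DESeq2 than were called here. The fit was also run on simulated data with a single dispersion for all genes and planted changes. That setting lacks the immune and brown fat RNA of the VO libraries. Its outcome is not reported here, and it is no check of the results above. The 10 genes, the lists of pathway and marker genes and the rule for naming genes were chosen with earlier results of these data known. The rule names all 10 genes, pathway genes with an unadjusted p-value under 0.05 or without overlap, the most abundant gene of each role, markers by list and the 5 genes most like Bmp10. Bmp5, Gdf7, Bmpr2, Furin, Rgmb, Smad1, Smad5 and Smad9, and the log2 ratios, were named after their values were seen. Alternatives were other pseudocounts (1 and 0.01), filters (0.1 or none), TPM, quantile normalization, variance settings, voom, array weights, a replicate block and each library left out. FPKM as deposited, without the scaling, was also among them and gave the same values as the main fit. Promoters are from RefSeq (GRCm38.p6). Python 3.11.15 and matplotlib 3.10.9 were used for the figures. Genes of other pathways were not analysed here, and some listed genes are not reported here.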

Additional observations from a re-analysis of the deposited data

How the results depend on the processing

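In every setting tried, 0 of the 10 genes had an adjusted p-value under 0.05. The count with an unadjusted p-value under 0.05, 2 as reported (Bmp10 and Acvrl1), was 1 with a pseudocount of 0.01, a mean FPKM of at least 0.1, no filter, TPM, quantile normalization or no variance trend, 3 with array weights (Bmp6 added), and 0 to 3 when each library was left out in turn. Among the 6 former settings the gene left was Bmp10 without a variance trend and Acvrl1 in the other 5, where Bmp10 was lost. Of all genes tested, 6.9% to 15.8% reached such a p-value in these 18 alternatives, against 12% as reported. With the replicate block the count was 0. Replicate numbers were not read as pairs, since the correlations of deviations between libraries of the same number were -0.108, 0.011 and -0.029. The block lowered the count over all genes from 1511 to 932. For the other pathway genes, the count of 5 was 3 with quantile normalization and 8 with array weights, and 3 to 9 when each library was left out, the extremes without sham 3 and without VO 2.

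Bmp10 kept its negative sign in all 18 alternatives, with log2 fold changes from -0.62 without VO 2 to -0.20 with quantile normalization and adjusted p-values from 0.260 to 0.703. Acvrl1 kept its positive sign in all 18, from 0.22 without sham 2 to 0.43 with TPM. Bmp6, Id1, Id3, Smad6, Hamp, Hfe2, Rgma, Nkx2-5 and Fstl1 also kept their signs. For all these genes, FPKM as deposited, the filters, the variance settings and the replicate block could not change the estimate. Where the groups do not overlap, leaving out a library could hardly turn the sign. The kept signs are thus only in part a check. The sign turned for Bmp2 with TPM (0.0536) and when a library was left out (-0.45 to 0.18), for Bmp4 with TPM (0.0396) and when a library was left out (-0.31 to 0.0221), for Eng with quantile normalization (0.0287) and for Id2 when a library was left out (-0.0220 to 0.28). The causes were not tested. TPM shifted the median log2 fold change of all genes by 0.14, which exceeds the TPM values of Bmp2 and Bmp4.

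By Spearman's rho, 18 genes tied at 1, Hectd2os and Mthfd2 among them, and the 0 of 5 genes shared with the first 5 there rests on the order of ties. By deviations from the group means, 0 of the 5 were shared.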
